A study of Homo sapiens with 12 samples.

Results

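Hypoxia-inducible genes and the regulators of hypoxia-inducible factor (HIF) were followed in the melanoma lines A375 and A2058, both established human lines with BRAF V600E per the labels, with and without vemurafenib, an inhibitor of mutant BRAF. The set was given as a list of 36 genes, chosen with earlier results of these data known. A gene was measured where the array had a probe set annotated with that symbol alone. This held for 34 genes of 18404 named genes in all; EGLN2 and CA9 had no such probe set. Each line was cultured with vemurafenib or with the solvent DMSO alone, and each of the 4 groups has 3 arrays (Affymetrix Human Gene 1.0 ST), 12 in all. The drug was given at 1 µM over 72 h with renewal each 24 h, against an equal volume of DMSO; the protocol names A375p cells but stands on all samples. No low-oxygen treatment is described in the labels, and whether replicate arrays came from separate cultures is not stated, so p-values measure the spread between these arrays, which may be technical.

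HIF is a transcription factor made of an oxygen-regulated alpha subunit, HIF1A or EPAS1 (HIF-2 alpha), and a constant partner, ARNT. In the presence of oxygen the prolyl hydroxylases EGLN1, EGLN2 and EGLN3 mark the alpha subunit for the VHL ubiquitin ligase, and HIF1AN blocks its contact with coactivators, so HIF activity is set largely at the protein level, which these arrays do not measure. HIF target genes include factors that call in blood vessels, enzymes of glycolysis and collagen maturation, mitophagy receptors and several of HIF's own inhibitors, and in melanoma many of them are expressed even in oxygen-rich culture.

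The upstream sequences of 6 members are shown as examples. BNIP3, FAM162A, P4HA1 and BHLHE40 fell in both lines, BHLHE41 moved in opposite directions, and EPAS1 rose in A2058. No member that fell in A375 and was not called in A2058 is shown. Each line is the stretch of 250 bases before the RefSeq transcription start (build GRCh38.p14), 5′ to 3′ on the gene's strand. Capitals mark the core letters of the HIF response element, ACGTG or GCGTG, found on either strand (CACGT and CACGC are the reverse complements).
BNIP3, chr10:131981924-131982173, minus strand: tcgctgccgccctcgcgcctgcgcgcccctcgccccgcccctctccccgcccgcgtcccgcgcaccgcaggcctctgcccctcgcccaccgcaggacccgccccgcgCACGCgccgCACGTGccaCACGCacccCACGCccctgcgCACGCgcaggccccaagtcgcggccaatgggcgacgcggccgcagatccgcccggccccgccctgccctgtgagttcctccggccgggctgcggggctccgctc
FAM162A, chr3:122383932-122384181, plus strand: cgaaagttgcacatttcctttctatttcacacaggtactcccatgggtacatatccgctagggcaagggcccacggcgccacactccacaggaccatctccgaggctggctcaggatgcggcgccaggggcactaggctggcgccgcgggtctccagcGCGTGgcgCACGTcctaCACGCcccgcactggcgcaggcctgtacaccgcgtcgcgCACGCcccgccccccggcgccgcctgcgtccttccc
P4HA1, chr10:73096867-73097116, minus strand: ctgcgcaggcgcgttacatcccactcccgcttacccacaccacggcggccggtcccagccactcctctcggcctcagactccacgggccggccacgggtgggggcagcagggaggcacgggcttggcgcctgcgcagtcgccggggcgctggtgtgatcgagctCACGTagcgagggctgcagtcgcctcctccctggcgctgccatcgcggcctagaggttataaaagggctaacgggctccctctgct
BHLHE40, chr3:4979187-4979436, plus strand: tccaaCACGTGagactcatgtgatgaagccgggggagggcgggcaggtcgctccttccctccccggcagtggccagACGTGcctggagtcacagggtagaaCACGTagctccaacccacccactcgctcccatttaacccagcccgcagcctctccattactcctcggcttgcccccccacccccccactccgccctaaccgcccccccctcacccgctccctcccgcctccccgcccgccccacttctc
BHLHE41, chr12:26125038-26125287, minus strand: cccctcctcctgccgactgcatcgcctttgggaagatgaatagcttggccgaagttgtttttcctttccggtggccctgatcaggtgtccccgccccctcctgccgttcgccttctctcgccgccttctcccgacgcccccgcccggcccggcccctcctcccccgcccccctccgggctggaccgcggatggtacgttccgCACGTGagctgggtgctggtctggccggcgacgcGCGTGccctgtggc
EPAS1, chr2:46297157-46297406, plus strand: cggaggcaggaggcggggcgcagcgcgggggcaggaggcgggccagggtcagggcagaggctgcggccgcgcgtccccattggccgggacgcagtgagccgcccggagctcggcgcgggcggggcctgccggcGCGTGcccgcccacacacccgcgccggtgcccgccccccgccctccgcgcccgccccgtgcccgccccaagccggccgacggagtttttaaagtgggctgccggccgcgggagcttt

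A palindromic CACGTG, the E-box that BHLHE40 and BHLHE41 themselves bind, holds ACGTG on both strands and counts as 2 matches. By that count BNIP3 had 6 matches, FAM162A 4, BHLHE40 4, BHLHE41 3, P4HA1 1 and EPAS1 1. The promoters shown thus all hold a core, but those of TMEM45A and P4HA2, which also fell in both lines, held neither. Nor did those of ARNT, which moved in opposite directions, or of HIF1AN, RORA, EGLN3 and SLC6A8. RefSeq promoters were matched for 26 of the 34 members, and 19 of these (73.1%) held ACGTG or GCGTG, against 51.1% of the 14230 measured genes with a promoter. ACGTG stood in 13 member promoters and in 21.1% of those of all measured genes, and GCGTG in 13 member promoters and in 39.7%. Of the 20 members that fell in both lines 13 were matched, and of these 11 (84.6%) held either core and 9 (69.2%) held ACGTG. Of the 14 other members 13 were matched, and these counts were 8 (61.5%) and 4 (30.8%). The unmatched members that fell in both lines include STC1, VEGFA, NDRG1 and HILPDA, so the shares do not describe that whole group. CACGTG stood in 26.9% of member promoters and in 7.86% of those of all measured genes. Both cores contain CG, and median GC content was 70.0% in the members' promoters and 62.8% in all; its part in the shares was not tested. A match is a run of letters, not a measured binding site, and 250 bases leave out more distant elements.

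Replicate arrays correlated at r = 0.9978 to 0.9989 across all genes, except for A375 vemurafenib replicate 1, whose values against replicates 2 and 3 were 0.9941 and 0.9939. Each call of a member below that turns on that array is given without it. Calls of genes outside the set were not examined in this way. All 6 measured ERK output genes fell in both lines, against 6.85% of all genes. The ERK phosphatase DUSP6 changed by -1.69 ± 0.055 in A375 and -2.63 ± 0.055 in A2058 (log2 difference ± SE), and the pathway inhibitor SPRY4 by -3.91 ± 0.060 and -3.0 ± 0.060. Both lines had the melanocyte lineage factors SOX10 and MITF above the median gene, while 4 of 7 measured melanocytic markers lay below the median gene in A375 with DMSO and 1 in A2058 with DMSO. In A375 the mean log2 level of these 7 markers was 6.55 to 6.65 over the DMSO arrays and 6.88 to 6.97 over the treated arrays; in A2058 it was 8.55 to 8.62 and 9.95 to 9.97. Of 22 measured markers of fibroblasts, blood, epithelia and endothelia, 18 or 19 lay below the median gene in every group but A375 with vemurafenib, where 16 did. Beside the changes below, the stromal proteoglycan LUM rose by 2.15 ± 0.11 in A375, KRT18 fell in both lines (-1.79 ± 0.12 and -1.41 ± 0.12), as did LYZ (-1.27 ± 0.10 and -2.12 ± 0.10); their part in the results was not tested.

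In A375, 30 of the 34 measured members fell with vemurafenib and none rose in limma, where 1 was higher at an unadjusted p under 0.05. Over all 18404 genes, 19.3% were called down and 17.7% up, a gene being called at a Benjamini-Hochberg adjusted p under 0.05 in limma. The median change of the members was -0.65 on the log2 scale (range -3.86 to 0.18), against 0.0042 for all genes, and 9 members fell at least 2-fold, as did 2.27% of all genes. EPAS1, EGLN3, CITED2 and SLC6A8 were not called. For 30 members all 3 treated arrays lay below all 3 DMSO arrays, against 22.6% of all genes, and these were the 30 that were called. Without A375 vemurafenib replicate 1, 28 members were called down and EPAS1 up. Calls over all genes in either direction were then 7785, against 6816 with that array.

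In A2058, 20 of the 34 fell, 6 rose and 8 were not called, against 12.5% of all genes down and 14.6% up. The members' median was -0.26 (range -2.14 to 1.99), with 0.0064 for all genes, and 6 members fell and 1 rose at least 2-fold (1.15% and 0.837% of all genes). All 20 members that fell in A2058 also fell in A375, as did 1260 of the 2300 genes that fell in A2058. Of all 18404 genes, 6.85% fell in both lines. Of the 6 that rose in A2058, ARNT, BHLHE41 and WSB1 fell in A375, and EPAS1, CITED2 and SLC6A8 were not called there. Of the 2691 genes that rose in A2058, 480 fell in A375 and 1011 were not called there (2.61% and 5.49% of all genes). The other 7 members that fell in A375, namely HIF1AN, VHL, RORA, KDM3A, KDM4B, ADM and CA12, were not called in A2058. Of the 3551 genes that fell in A375, 1811 were not called in A2058 (9.84% of all genes). The responses come from separate arrays. Across the 34 members they correlated at Pearson r = 0.69 and Spearman rho = 0.71, with 0.37 and 0.29 across all genes, where genes are not independent replicates. Of all genes 53.6% were called in neither line, against 1 member, EGLN3, so these correlations do not compare like sets. An RNA level averaged over a culture does not tell a change in every cell from a change in some cells.

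**Figure D1:**
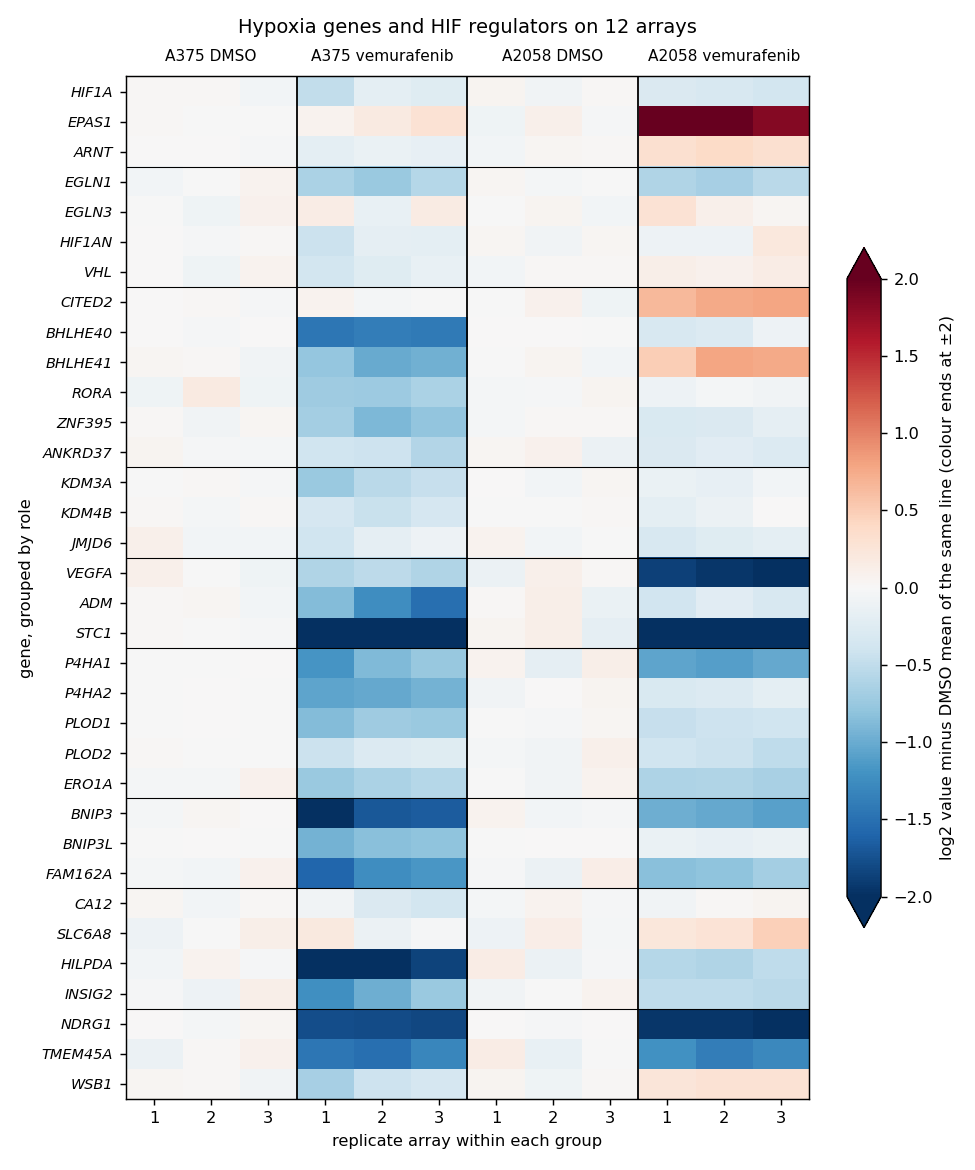
Log2 value of each of the 34 measured members (rows, grouped by role) on each of the 12 arrays (columns), minus the mean of the 3 DMSO arrays of the same line; blue is lower, red is higher, and colour ends at ±2. The treated A375 columns are blue for 30 members, while the treated A2058 columns hold 6 members that rose, with EPAS1 the most intense red.

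The HIF subunits did not move together. HIF1A, the alpha subunit present in most tissues, read 10.82, 10.83 and 10.75 (log2, replicates 1 to 3) in A375 with DMSO and 10.30, 10.61 and 10.56 with vemurafenib. In A2058 it read 11.43, 11.31 and 11.40 with DMSO and 11.08, 11.05 and 11.01 with vemurafenib. All treated arrays lay below the DMSO arrays of their line, and the changes were -0.31 ± 0.069 (adjusted p = 0.00302) and -0.33 ± 0.069 (adjusted p = 0.00283); the 95% interval of their difference was -0.19 to 0.23. EPAS1, the alpha subunit known from endothelium and renal cancer, read 6.20, 6.39 and 6.27 in A2058 with DMSO and 8.32, 8.38 and 8.12 with vemurafenib. That rise of 1.99 ± 0.074 (adjusted p = 8.38e-10), 3.96-fold, was the largest rise of any member and stood above 99.9% of all genes in A2058. In A375 EPAS1 read 6.44, 6.41 and 6.40 and then 6.48, 6.59 and 6.70, without overlap but with a difference of 0.18 ± 0.074 that was not called (adjusted p = 0.0861). That call was reached without A375 vemurafenib replicate 1 (0.23, adjusted p = 0.024) or A2058 vemurafenib replicate 3 (0.18, adjusted p = 0.0433), and the adjusted p ran from 0.0119 to 0.287 over all alternatives. ARNT, the shared partner, read 9.03, 9.03 and 8.99 and then 8.82, 8.89 and 8.86 in A375, a change of -0.16 ± 0.041 (adjusted p = 0.00719). The A2058 arrays read 8.35, 8.46 and 8.43 and then 8.73, 8.80 and 8.73, a rise of 0.34 ± 0.041 (adjusted p = 4.11e-05). The responses of the lines differed for EPAS1 (-1.81 ± 0.10, adjusted p = 4.67e-08) and ARNT (-0.50 ± 0.058, adjusted p = 2.65e-05), each as A375 minus A2058.

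Among the oxygen sensors, EGLN1, the main prolyl hydroxylase that limits HIF in normal oxygen and a HIF target itself, fell in both lines. It read 9.59, 9.64 and 9.71 in A375 with DMSO and 9.02, 8.90 and 9.07 with vemurafenib, and 9.66, 9.58 and 9.61 and then 9.02, 8.95 and 9.08 in A2058. No treated array reached a DMSO array, the changes were -0.65 ± 0.054 (adjusted p = 6.54e-07) and -0.60 ± 0.054 (adjusted p = 2.63e-06), and the 95% interval of their difference was -0.22 to 0.11. EGLN3, the hydroxylase best known for its strong induction in hypoxia, ranged over 5.63 to 5.80 with DMSO and 5.57 to 5.88 with drug in A375, and over 6.11 to 6.21 and 6.19 to 6.45 in A2058. Treated and DMSO arrays overlapped in both lines (0.06 ± 0.087, adjusted p = 0.712, and 0.14 ± 0.087, adjusted p = 0.295). VHL, the substrate receptor of the ubiquitin ligase that degrades HIF alpha, fell in A375 (-0.25 ± 0.057, adjusted p = 0.00353) and was not called in A2058 (0.12 ± 0.057, adjusted p = 0.168), and these responses differed (-0.37 ± 0.081, adjusted p = 0.00366). HIF1AN, the asparaginyl hydroxylase that blocks coactivator binding, read 8.01, 7.97 and 8.01 and then 7.57, 7.82 and 7.81 in A375, a change of -0.26 ± 0.085 (adjusted p = 0.0273). That call was lost without A375 DMSO replicate 1 (adjusted p = 0.0742), 2 (0.053) or 3 (0.0746) or A375 vemurafenib replicate 1 (0.0837), over a range of 0.00608 to 0.0837. In A2058 the HIF1AN difference was 0.00 ± 0.085 (adjusted p = 0.999).

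Of the 6 transcriptional regulators, 5 fell in A375, while 3 fell and 2 rose in A2058. Of all genes, 19.3% fell in A375, and 12.5% fell and 14.6% rose in A2058. BHLHE40 (DEC1), a repressor of the circadian clock and a HIF target, read 9.53, 9.50 and 9.53 in A375 with DMSO and 8.08, 8.14 and 8.10 with vemurafenib, a change of -1.41 ± 0.052 (adjusted p = 2.82e-10), or 2.66-fold. In A2058 it read 9.35, 9.36 and 9.34 and then 9.02, 9.07 and 9.25, a smaller change of -0.23 ± 0.052 (adjusted p = 0.00459). Its paralogue BHLHE41 (DEC2), likewise a clock repressor and also known as an MITF target, read 7.59, 7.58 and 7.48 and then 6.77, 6.54 and 6.59 in A375. In A2058 BHLHE41 read 6.71, 6.77 and 6.66 and then 7.21, 7.51 and 7.47. The A375 arrays dropped without overlap and the A2058 arrays climbed without overlap, with changes of -0.92 ± 0.079 (adjusted p = 1.03e-06) and 0.68 ± 0.079 (adjusted p = 2.74e-05). The difference between these responses was -1.60 ± 0.11 (adjusted p = 2.7e-07). CITED2, which competes with HIF for the coactivators CBP and p300, read 8.68, 8.70 and 8.65 and then 8.75, 8.63 and 8.66 in A375, where the groups overlapped (0.01 ± 0.054, adjusted p = 0.939). In A2058 it read 8.07, 8.17 and 8.0 and then 8.73, 8.84 and 8.88, a rise of 0.74 ± 0.054 (adjusted p = 4.07e-07) that brought it close to its level on the A375 arrays.

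The remaining regulators were lower with drug in A375. The nuclear receptor RORA read 5.08, 5.35 and 5.08 with DMSO and 4.46, 4.45 and 4.53 with vemurafenib in A375 (-0.69 ± 0.066, adjusted p = 2.54e-06), and 4.35 to 4.45 and then 4.29 to 4.35 in A2058 (-0.07 ± 0.066, adjusted p = 0.588). RORA already averaged 4.38 in A2058 with DMSO, near the 10th percentile of all gene values (4.35), so a fall there could hardly have been measured. Its treated A375 arrays, with a mean of 4.48, also lay near that level. The difference of its responses is therefore uncertain. ZNF395, a hypoxia-induced zinc finger protein, fell by more in A375 (-0.79 ± 0.058) than in A2058 (-0.26 ± 0.058; difference -0.53 ± 0.081, adjusted p = 0.000275). ANKRD37, a small ankyrin repeat protein induced by HIF, fell in both (-0.47 ± 0.062, adjusted p = 4.76e-05, and -0.26 ± 0.062, adjusted p = 0.00676). Its responses were not called different (-0.21 ± 0.088, adjusted p = 0.102), but were without A375 vemurafenib replicate 1 (-0.24, adjusted p = 0.0444, over a range of 0.0278 to 0.231).

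KDM3A, a HIF-induced demethylase of histone H3 lysine 9, read 8.85, 8.90 and 8.84 in A375 with DMSO and 8.11, 8.32 and 8.41 with vemurafenib, a change of -0.58 ± 0.065 (adjusted p = 9.54e-06). In A2058 the treated arrays also lay lower, 8.12 to 8.23 against 8.23 to 8.32, but the difference of -0.11 ± 0.065 was not called (adjusted p = 0.265). KDM4B, a further HIF-induced histone demethylase, fell in A375 (-0.38 ± 0.052, adjusted p = 6.87e-05), while its A2058 groups overlapped (-0.10 ± 0.052, adjusted p = 0.206). The A2058 difference was called without A2058 vemurafenib replicate 3 (-0.15, adjusted p = 0.0399, over a range of 0.0399 to 0.605). The response was larger in A375 for KDM3A (-0.47 ± 0.091, adjusted p = 0.00154) and KDM4B (-0.28 ± 0.073, adjusted p = 0.0122). JMJD6, a hydroxylase of splicing factors, fell by a small amount in both lines (-0.23 ± 0.074, adjusted p = 0.0256, and -0.26 ± 0.074, adjusted p = 0.0201). Its A375 call was lost without A375 DMSO replicate 1 (-0.18, adjusted p = 0.117) or A375 vemurafenib replicate 1 (-0.14, adjusted p = 0.0712), over a range of 0.00912 to 0.117. Leaving out replicate 1 of the A2058 vemurafenib arrays (adjusted p = 0.0851) or of the A2058 DMSO arrays (0.0843) ended its A2058 call, over a range of 0.000837 to 0.0851.

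The secreted factors held the deepest fall of the set. STC1, the glycoprotein hormone stanniocalcin 1, read 8.97, 8.94 and 8.93 in A375 with DMSO and 4.98, 5.24 and 5.04 with vemurafenib. The A2058 arrays read 6.74, 6.80 and 6.50 and then 4.59, 4.42 and 4.61. DMSO and treated arrays stood far apart in each line, with changes of -3.86 ± 0.085 (adjusted p = 1.86e-12), or 14.5-fold, and -2.14 ± 0.085 (adjusted p = 1.42e-09), or 4.41-fold. The measured changes differed by -1.72 ± 0.12 (adjusted p = 2.63e-07), but treated STC1 averaged 4.54 in A2058, near the 10th percentile of all gene values (4.35). The A2058 change is thus a lower bound, and the difference of the responses is uncertain. VEGFA, the growth factor for blood vessels, went the other way in size: it read 8.40, 8.29 and 8.22 and then 7.71, 7.79 and 7.71 in A375, and 8.55, 8.77 and 8.70 and then 6.80, 6.72 and 6.68 in A2058. The changes were -0.57 ± 0.064 (adjusted p = 1.01e-05) in A375 and -1.94 ± 0.064 (adjusted p = 2.69e-10), or 3.83-fold, in A2058, and they differed by 1.37 ± 0.090 (adjusted p = 1.51e-07). ADM, the vasodilator peptide adrenomedullin, read 7.55, 7.57 and 7.46 and then 6.65, 6.28 and 6.02 in A375, a change of -1.21 ± 0.12 (adjusted p = 4.43e-06), with a wider spread of the treated arrays (SD 0.32) than for any other member. In A2058 ADM read 6.57, 6.67 and 6.42 and then 6.18, 6.32 and 6.23, without overlap but not called (-0.31 ± 0.12, adjusted p = 0.0867). ADM was called there without A375 vemurafenib replicate 1 (adjusted p = 0.00557) or 3 (0.0243), which share in the estimate of spread, and the range over all alternatives was 0.00557 to 0.254.

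Each of the 5 members that work on collagen or disulfide bonds fell in both lines, against 6.85% of all genes. P4HA1, a catalytic subunit of collagen prolyl 4-hydroxylase, read 9.47, 9.47 and 9.48 in A375 with DMSO and 8.29, 8.59 and 8.72 with vemurafenib, and 9.79, 9.55 and 9.84 and then 8.68, 8.63 and 8.71 in A2058. Its changes of -0.94 ± 0.097 (adjusted p = 5.21e-06) and -1.05 ± 0.097 (adjusted p = 3.36e-06) were not called different, with a 95% interval of the difference of -0.19 to 0.41. The paralogue P4HA2 read 9.51, 9.54 and 9.52 and then 8.47, 8.5 and 8.58 in A375, and 8.82, 8.90 and 8.94 and then 8.58, 8.62 and 8.69 in A2058. Here the change was -1.01 ± 0.046 (adjusted p = 2.12e-09) in A375 but -0.26 ± 0.046 (adjusted p = 0.00097) in A2058, and the difference was called (-0.75 ± 0.065, adjusted p = 1.99e-06). Of the lysyl hydroxylases that prepare collagen for crosslinking, PLOD1 fell by more in A375 (-0.77 ± 0.045) than in A2058 (-0.42 ± 0.045; difference -0.35 ± 0.064, adjusted p = 0.00107). PLOD2, the one most tied to hypoxia, changed by -0.31 ± 0.057 (adjusted p = 0.000683) and -0.44 ± 0.057 (adjusted p = 6.67e-05), with an interval of the difference of -0.05 to 0.31. ERO1A, the oxidase that drives disulfide formation in the endoplasmic reticulum, fell in A375, with DMSO arrays at 10.31 to 10.44 and treated arrays at 9.60 to 9.78, and in A2058, with 10.33 to 10.48 and 9.76 to 9.80. Its changes of -0.65 ± 0.056 and -0.62 ± 0.056 had an interval of the difference of -0.20 to 0.14.

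All 3 mitochondrial members fell in both lines, against 6.85% of all genes, and each fell by more in A375. BNIP3, a mitophagy receptor of the outer membrane, read 11.34, 11.42 and 11.39 in A375 with DMSO and 9.40, 9.68 and 9.72 with vemurafenib, a change of -1.78 ± 0.074 (adjusted p = 8.26e-10), or 3.44-fold. In A2058 BNIP3 read 10.96, 10.83 and 10.86 and then 9.90, 9.86 and 9.80, a change of -1.03 ± 0.074 (adjusted p = 3.54e-07). Its paralogue BNIP3L (NIX), the receptor that clears mitochondria from maturing red cells, read 11.03, 11.05 and 11.03 and then 10.10, 10.21 and 10.24 in A375 (-0.86 ± 0.041, adjusted p = 3.01e-09). In A2058 BNIP3L barely moved, from 10.98, 10.99 and 10.99 to 10.86, 10.83 and 10.85, yet without overlap (-0.14 ± 0.041, adjusted p = 0.0192); leaving out A2058 vemurafenib replicate 2 (adjusted p = 0.0694) or A2058 DMSO replicate 3 (0.0532) ended this call, over a range of 0.00218 to 0.0694. FAM162A, a small mitochondrial protein induced by HIF and linked to cell death, read 8.25, 8.25 and 8.38 and then 6.71, 7.05 and 7.13 in A375, and 7.68, 7.58 and 7.83 and then 6.87, 6.89 and 7.01 in A2058. Its changes were -1.33 ± 0.099 (adjusted p = 2.3e-07) and -0.77 ± 0.099 (adjusted p = 6.02e-05). The response differences were -0.75 ± 0.10 (adjusted p = 0.000118) for BNIP3, -0.71 ± 0.058 (adjusted p = 9.84e-07) for BNIP3L and -0.56 ± 0.14 (adjusted p = 0.00859) for FAM162A. BNIP3 has a pseudogene that could share its probes.

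HILPDA, a lipid droplet protein that inhibits triglyceride breakdown, was among the members that fell most in A375. It read 7.88, 8.0 and 7.91 with DMSO and 5.88, 5.89 and 6.08 with vemurafenib there, a change of -1.98 ± 0.071 (adjusted p = 2.07e-10), or 3.95-fold. The A2058 arrays read 7.39, 7.13 and 7.22 and then 6.68, 6.64 and 6.74, a change of -0.56 ± 0.071 (adjusted p = 5.96e-05), and the difference was -1.42 ± 0.10 (adjusted p = 2.92e-07). INSIG2, which retains the sterol sensor in the endoplasmic reticulum, read 6.44, 6.38 and 6.59 and then 5.25, 5.5 and 5.73 in A375 and 6.62, 6.68 and 6.75 and then 6.17, 6.17 and 6.14 in A2058 (-0.98 ± 0.096, adjusted p = 3.42e-06, and -0.52 ± 0.096, adjusted p = 0.00121). Its larger fall in A375 (-0.46 ± 0.14, adjusted p = 0.0222) was no longer called without A375 DMSO replicate 3 (adjusted p = 0.0609) or A2058 DMSO replicate 1 (0.0575), over a range of 0.00137 to 0.0609. CA12, a membrane carbonic anhydrase that regulates pH, was dim in every group, with 5.31 to 5.40 in A375 with DMSO, 5.0 to 5.29 with vemurafenib, and 4.91 to 5.01 and 4.88 to 5.01 in A2058. Its fall in A375 (-0.24 ± 0.068, adjusted p = 0.0132) was lost without A375 DMSO replicate 1 (adjusted p = 0.0514) or A375 vemurafenib replicate 3 (0.0612), over a range of 0.000213 to 0.0612, and in A2058 it changed by 0.01 ± 0.068. The CA12 responses were not called different (-0.25 ± 0.096, adjusted p = 0.0761) but were without A375 vemurafenib replicate 1 (-0.33, adjusted p = 0.00265, over a range of 0.00241 to 0.171). SLC6A8, the creatine transporter, which has near-identical copies in the genome that could contribute signal, overlapped between 8.28, 8.36 and 8.49 and 8.58, 8.27 and 8.35 in A375 (0.02 ± 0.095, adjusted p = 0.917). In A2058 it read 8.07, 8.31 and 8.14 and then 8.39, 8.44 and 8.65, a rise of 0.32 ± 0.095 (adjusted p = 0.0225) whose call ended on leaving out A2058 vemurafenib replicate 3 (adjusted p = 0.105) or A2058 DMSO replicate 1 (0.0976) or 3 (0.0701), over a range of 0.00218 to 0.105. Its responses were called different only without A375 vemurafenib replicate 1 among the arrays left out (-0.40, adjusted p = 0.0185, over a range of 0.0117 to 0.275).

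NDRG1, a hypoxia-induced protein also known as a suppressor of metastasis, fell on every treated array of both lines. It read 10.99, 10.95 and 11.02 in A375 with DMSO and 9.21, 9.21 and 9.16 with vemurafenib, and 10.21, 10.17 and 10.21 and then 8.24, 8.25 and 8.19 in A2058. The groups of 3 arrays were tight and far apart, with changes of -1.79 ± 0.037 (adjusted p = 1.14e-12), or 3.47-fold, and -1.97 ± 0.037 (adjusted p = 3.15e-12), or 3.92-fold. The excess of 0.18 in A2058 (adjusted p = 0.0236) was lost without A375 DMSO replicate 2 (0.0671), A375 vemurafenib replicate 2 (just above the threshold), A2058 DMSO replicate 1 (0.0558) or 3 (0.0504) or A2058 vemurafenib replicate 3 (0.0584), over a range of 0.0117 to 0.0849. TMEM45A, a transmembrane protein induced by hypoxia, read 6.59, 6.73 and 6.78 and then 5.25, 5.18 and 5.40 in A375, and 7.31, 7.02 and 7.15 and then 5.95, 5.78 and 5.88 in A2058. Its changes of -1.42 ± 0.082 (adjusted p = 2e-08) and -1.29 ± 0.082 (adjusted p = 1.08e-07) had a 95% interval of the difference of -0.38 to 0.12. WSB1, a ubiquitin ligase adaptor reported to act on VHL, read 8.44, 8.43 and 8.33 and then 7.74, 7.99 and 8.06 in A375, a change of -0.47 ± 0.073 (adjusted p = 0.000172). In A2058 WSB1 read 8.32, 8.18 and 8.30 and then 8.5, 8.56 and 8.56, a rise of 0.27 ± 0.073 (adjusted p = 0.0135) whose call ended on leaving out A2058 DMSO replicate 2 (0.23, adjusted p = 0.0598, over a range of 0.000487 to 0.0598) and when each array's median was subtracted (0.25, adjusted p = 0.0507).

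**Figure D2:**
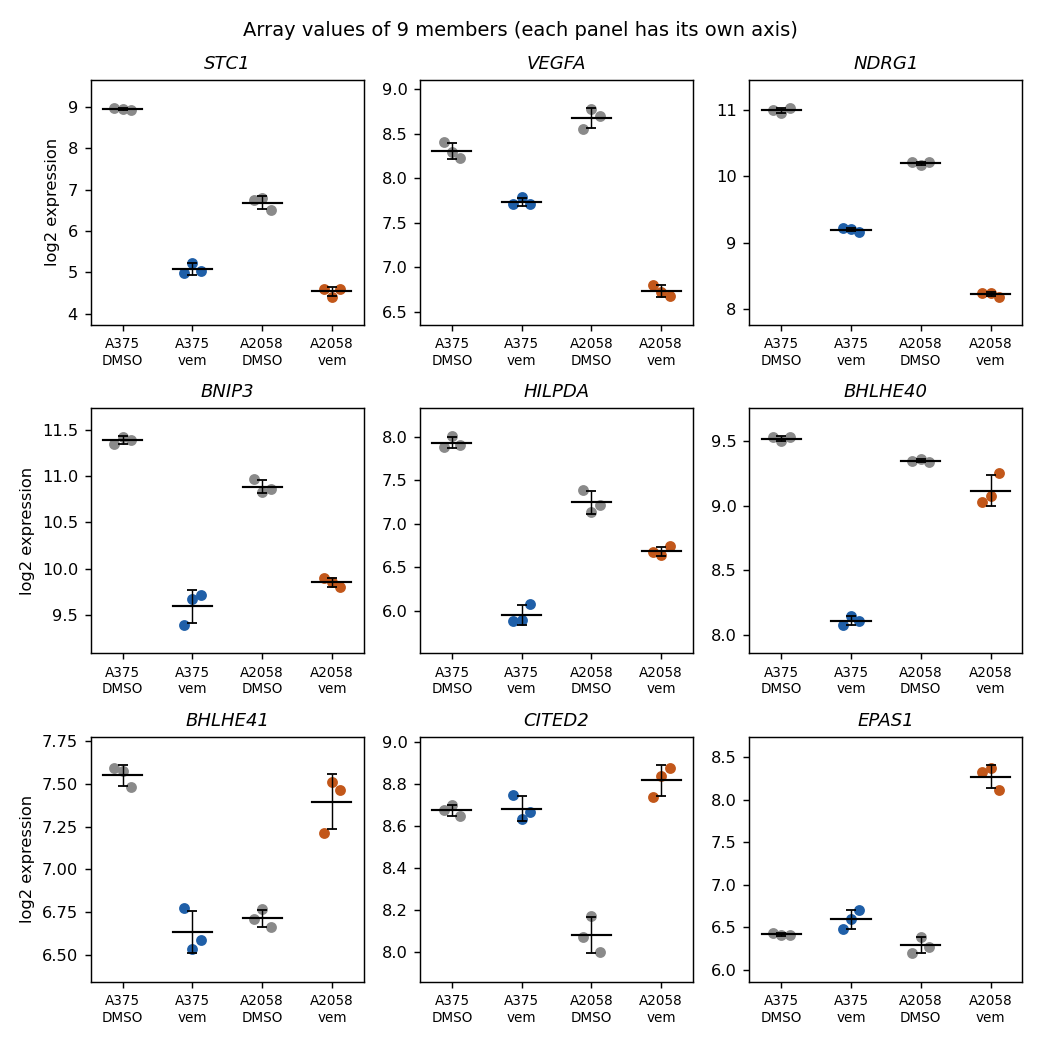
Log2 expression of 9 members on every array, with 3 points per group, the group mean as a line and the SD as a bar; each panel has its own axis. STC1, VEGFA, NDRG1, BNIP3, HILPDA and BHLHE40 were lower on every treated array than on the DMSO arrays of the same line, whereas BHLHE41 moved in opposite directions and CITED2 and EPAS1 rose in A2058.

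Whether the lines responded alike was tested directly. The response of A375 was below that of A2058 for 20 of the 34 members and above it for 2, VEGFA and NDRG1, against 16.4% and 13.1% of all genes; 12 were not called. The median of this difference was -0.41, with -0.0053 for all genes. Among the 20 members that fell in both lines, the fall was larger in A375 for 10, larger in A2058 for 2 and not called different for 8. Their median changes were -0.90 in A375 and -0.54 in A2058. Over all genes 1260 fell in both lines, and this split was not made for them, so it cannot be read as particular to the members. The members with a lower response in A375 include STC1 and RORA, whose A2058 values near the low end of the scale leave the difference uncertain. The 8 were HIF1A, EGLN1, ANKRD37, JMJD6, P4HA1, PLOD2, ERO1A and TMEM45A. Without A375 vemurafenib replicate 1, 23 members were called lower and 2 higher. Calls over all genes in either direction were then 6638, against 5434 with that array.

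**Figure D3:**
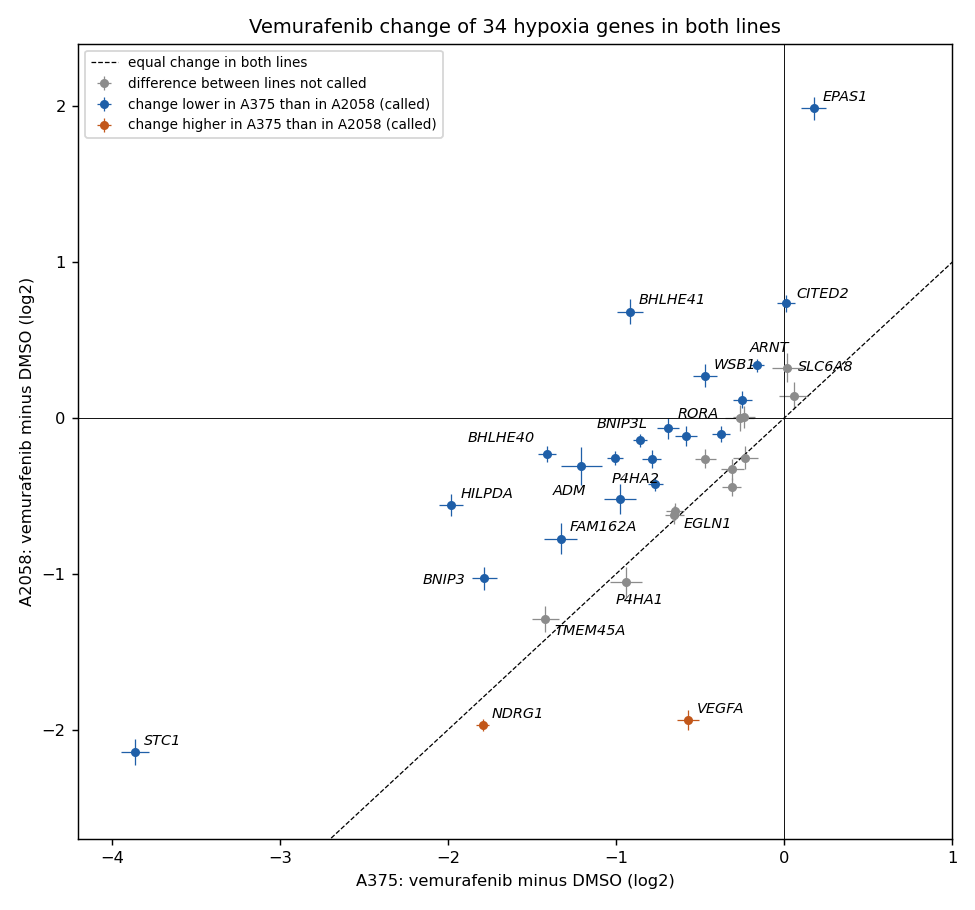
Change with vemurafenib in A375 (horizontal axis) and A2058 (vertical axis), log2 difference of group means with SE bars, for the 34 measured members; the dashed line marks equal change. Most points lie above the dashed line, where the change in A375 was the lower one, VEGFA lies well below it, and EPAS1 stands alone at the top with a rise of 1.99 in A2058.

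The lines were also compared directly, first without drug. With DMSO, 17 members were higher in A375 and 7 higher in A2058, against 23.9% and 22.5% of all genes, and the median difference was 0.19 (A375 minus A2058). STC1 differed most, by 2.26 ± 0.085 (adjusted p = 2.87e-10), or 4.80-fold, followed by ADM (0.97 ± 0.12), BHLHE41 (0.84 ± 0.079), NDRG1 (0.79 ± 0.037) and RORA (0.78 ± 0.066). The size of the RORA difference is uncertain, as RORA averaged 4.38 in A2058, near the 10th percentile of all gene values (4.35). VHL (0.69 ± 0.057), HIF1AN (0.67 ± 0.085) and ARNT (0.61 ± 0.041) were also higher in A375. The members higher in A2058 were HIF1A (-0.58 ± 0.069), PLOD2 (-0.52 ± 0.057), TMEM45A (-0.46 ± 0.082), EGLN3 (-0.44 ± 0.087), VEGFA (-0.37 ± 0.064), P4HA1 (-0.25 ± 0.097) and PLOD1 (-0.20 ± 0.045). The P4HA1 call (adjusted p = 0.0491) was lost without any array of A375 or A2058 with DMSO except A2058 DMSO replicate 2, without A375 vemurafenib replicate 2 and without any treated A2058 array, at adjusted p of 0.0556 to 0.176. INSIG2, JMJD6, SLC6A8 and WSB1, at -0.21 ± 0.096, -0.16 ± 0.074, 0.21 ± 0.095 and 0.13 ± 0.073, were called without A375 vemurafenib replicate 1 (adjusted p = 0.0159, 0.0243, 0.041 and 0.0283, against 0.0979, 0.105, 0.0965 and 0.167 with it). INSIG2 was also called without A375 vemurafenib replicate 3 (adjusted p = 0.0273), and SLC6A8 without A2058 DMSO replicate 2 (0.28, adjusted p = 0.0457). EPAS1 differed by 0.13 ± 0.074 (adjusted p = 0.19), EGLN1 by 0.03 ± 0.054 (adjusted p = 0.72) and ERO1A by -0.05 ± 0.056 (adjusted p = 0.522).

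With vemurafenib 5 members were higher in A375 and 15 higher in A2058, against 22.7% and 24.2% of all genes, and the median difference was -0.13. Of the 24 members called with DMSO, 9 kept their side, 5 changed side and 10 were not called. These counts were not made over all genes, so they cannot be read as particular to the members. The number higher in A375 was 8 when the arrays were quantile normalized again. Calls over all genes in either direction were then 8936, against 8636 before. EPAS1 differed most (-1.68 ± 0.074, adjusted p = 9.34e-10, 3.21-fold higher in A2058), and BHLHE40 (-1.01 ± 0.052), BHLHE41 (-0.76 ± 0.079) and HILPDA (-0.74 ± 0.071) were next among the members higher in A2058. VEGFA (1.00 ± 0.064) and NDRG1 (0.97 ± 0.037) were higher in A375, as were STC1 (0.54 ± 0.085), HIF1AN (0.41 ± 0.085) and VHL (0.32 ± 0.057). BHLHE40, BHLHE41, HILPDA and BNIP3 were thus higher in A375 with DMSO and higher in A2058 with vemurafenib, and VEGFA the reverse; this follows by arithmetic from the responses and the DMSO levels. The BNIP3 difference of -0.26 ± 0.074 (adjusted p = 0.0117) was -0.16 without A375 vemurafenib replicate 1. Without that array ARNT (0.12, adjusted p = 0.033), CITED2 (-0.17, adjusted p = 0.0228) and KDM3A (0.19, adjusted p = 0.00437) were also called, against 0.0557, 0.0596 and 0.209 with it. The other calls gained by leaving out an array were ANKRD37 (0.17, adjusted p = 0.0329), CA12 (0.23, adjusted p = 0.016) and P4HA2 (-0.14, adjusted p = 0.0333) without A375 vemurafenib replicate 3, and RORA (0.16, adjusted p = 0.00936) without A375 DMSO replicate 2. The treated RORA means, 4.48 in A375 and 4.32 in A2058, both lay near the low end of the scale. ARNT was also gained without A2058 vemurafenib replicate 2 (adjusted p = 0.0443) or A2058 DMSO replicate 1 (0.0474), and CITED2 without A2058 DMSO replicate 2 (0.0423) or 3 (0.0484) or A2058 vemurafenib replicate 1 (0.027). Over all alternatives the adjusted p ran from 0.0326 to 0.169 for ARNT, 0.0137 to 0.203 for CITED2 and 0.00322 to 0.639 for KDM3A.

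**Figure D4:**
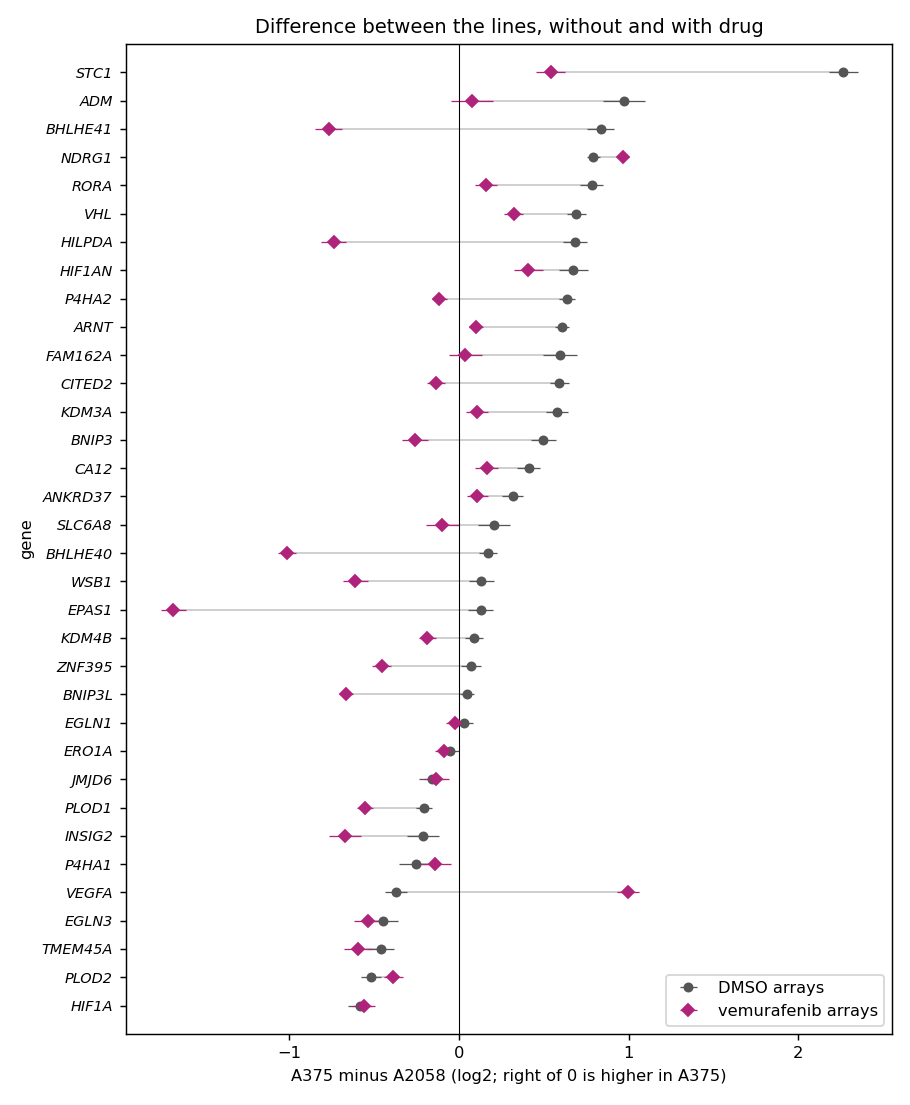
Difference between the lines (A375 minus A2058, log2, with SE bars) for each of the 34 measured members, on the DMSO arrays (grey circles) and on the vemurafenib arrays (magenta diamonds), ordered by the DMSO difference. Diamonds lie to the left of the circles for most members, VEGFA moves to the right, and EPAS1 moves from 0.13 to -1.68.

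Other genes of the pathway were taken from 3 lists written for this purpose, with earlier results of these data known. Of 15 measured genes that assist HIF turnover or act as its cofactors (16 listed), 4 rose and 1 fell in A375 and 2 rose and none fell in A2058 in limma, where 1 was lower at an unadjusted p under 0.05. The shares that rose, 26.7% and 13.3%, stand beside 17.7% and 14.6% of all genes. Medians were 0.10 and -0.014. The ubiquitin ligase TRIP12 (0.23 ± 0.049, adjusted p = 0.00218), the RING subunit RBX1 (0.21 ± 0.052, adjusted p = 0.00636) and SIAH2, a ligase that acts on EGLN proteins (-0.21 ± 0.059, adjusted p = 0.0144), changed most in A375 among those whose arrays did not overlap. In A2058 SIAH1 (0.24 ± 0.043, adjusted p = 0.000998) and the coactivator CREBBP (0.12 ± 0.038, adjusted p = 0.0312) rose.

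All 18 measured glycolytic HIF targets (20 listed) fell in A375 and 17 of 18 in A2058, against 19.3% and 12.5% of all genes, with medians of -0.85 and -0.44; ALDOC was not called in A2058. PDK1, which turns off pyruvate dehydrogenase, changed by -2.78 ± 0.049 and -1.40 ± 0.049, and in A375 the aldolase ALDOC (-2.68 ± 0.069) and the enolase ENO2 (-1.97 ± 0.046) followed. In A2058 the next were PFKFB3 (-1.36 ± 0.064) and PFKFB4 (-1.35 ± 0.078), which make an activator of glycolysis. Of 32 measured further HIF targets (37 listed), 20 fell and 5 rose in A375 and 17 fell and 7 rose in A2058, with medians of -0.37 and -0.25. Of all genes, 19.3% fell and 17.7% rose in A375, and 12.5% fell and 14.6% rose in A2058. NT5E, the ectonucleotidase CD73, fell in both (-3.85 ± 0.050 and -3.16 ± 0.050), with ANGPTL4, an inhibitor of lipoprotein lipase (-3.74 ± 0.068), and the adenylate kinase AK4 (-3.41 ± 0.090) next in A375. In A2058 the carrier of insulin-like growth factors IGFBP3 (-3.06 ± 0.063) and the EGFR ligand TGFA (-2.78 ± 0.11) came next. Several genes of this list, TGFA among them, are also known as targets of other pathways.

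**Figure D5:**
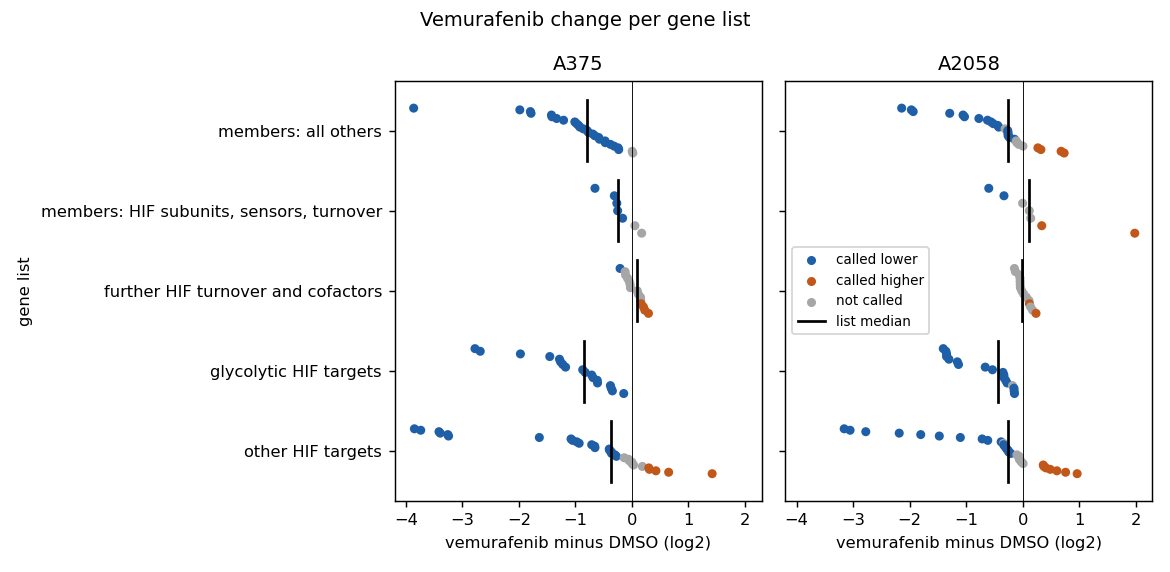
Change with vemurafenib (log2, horizontal axis) of each measured gene in 5 lists, in A375 and in A2058; points are single genes coloured by call and the black bars are list medians. The target lists lie mostly left of 0 in both lines, while the genes of HIF turnover and its cofactors lie close to 0, with medians of 0.10 and -0.014.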

How the data were processed

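RNA from 12 samples was hybridised to Affymetrix Human Gene 1.0 ST arrays, 3 per group. The deposited values are log2 expression per probe set, as the authors made them; the submitters' processing notes name R 3.0.1 and affy, while the methods of background correction, summary and normalization are given in no source used here. Quartiles nearly coincide between arrays, so a shift shared by most genes would not be seen.

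Of 32321 probe sets, 19158 had a single gene symbol in the platform annotation, 1388 several and 11775 none; symbols were updated through RefSeq for 19128. The probe set with the highest mean over 12 arrays stood for each of 18404 genes, and each measured member had exactly 1. Groups came from the sample labels. All 12 arrays were fitted together in limma 3.58.1 (R 4.3.3) with 4 group means (8 residual degrees of freedom), two-sided, with Benjamini-Hochberg adjustment over all genes; a call is an adjusted p under 0.05, and errors are SE of the fitted difference. The fit was tested on simulated data. The text names all 36 members, up to 3 called genes of each further list and line with the largest change and no overlap between treated and DMSO arrays, DUSP6 and SPRY4, and, chosen after their values were seen, SOX10, MITF, LUM, KRT18 and LYZ. The members and lists were chosen with earlier results of these data known. Alternatives were other scalings, a filter on dim genes, averaged probe sets, only the arrays compared, array weights, another variance prior, a replicate block and leaving out each array. Promoter motifs were counted on both strands of the 250 bases before each RefSeq start.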

Additional observations from a re-analysis of the deposited data

Results flagged for a closer look

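For 22 members the response to vemurafenib differed between the lines by the test of the difference itself in limma (A375 response minus A2058 response, log2). Over all genes, 16.4% were called lower and 13.1% higher in this test. The splits below were not made for all genes, so they cannot be read as particular to the members. Of the 22 members, 3 changed in opposite directions, with BHLHE41 at -1.60, WSB1 at -0.74 and ARNT at -0.50. EPAS1 (-1.81) and CITED2 (-0.73) rose in A2058 and were not called in A375. The fall was called in A375 and not in A2058 for ADM (-0.90), KDM3A (-0.47), VHL (-0.37) and KDM4B (-0.28). Both lines fell, A375 by more, for HILPDA (-1.42), BHLHE40 (-1.18), P4HA2 (-0.75), BNIP3 (-0.75), BNIP3L (-0.71), FAM162A (-0.56), ZNF395 (-0.53), INSIG2 (-0.46) and PLOD1 (-0.35). Both lines fell, A2058 by more, for VEGFA (1.37) and NDRG1 (0.18). STC1 (-1.72) and RORA (-0.62) are counted among the 22, but whether their responses were unequal is uncertain. STC1 in A2058 with vemurafenib (mean 4.54) and RORA in A2058 with DMSO (4.38) lay near the 10th percentile of all gene values (4.35). With 3 arrays a group, single members were not tested for an outlying array.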

How the results depend on the processing

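Across the 34 members, 5 comparisons and the alternatives, 3390 values were recomputed; 3292 kept their side of the threshold, of which 3254 also kept their sign and 38, uncalled throughout, changed it; 40 lost their call, 58 gained a call and 0 called values changed sign. Calls held under every alternative for 27 of 30 members in A375, 22 of 26 in A2058, 20 of 22 for the difference of the responses, 23 of 24 between the DMSO groups and 19 of 20 between the treated groups. The number of members called up in A375 was 0, and 1 with array weights (EPAS1), with a range of 0 to 1 when single arrays were left out. For the difference of the responses the number called up was 2, with a range of 1 to 2 when single arrays were left out, and between the treated groups it was 5, and 8 with quantile normalization again. Replicate numbers are shared by the labels, but deviations of same-numbered arrays correlated at -0.20, 0.10 and -0.13 in A375 and 0.025, -0.027 and -0.20 in A2058, so the numbers were not taken to pair the samples. With the replicate block, the number called up for the difference of the responses was 1 (NDRG1 was lost, adjusted p = 0.0849). The block also ended the calls of JMJD6 in A375 (adjusted p = 0.0823) and of JMJD6 (0.0748) and BNIP3L (0.0547) in A2058, and INSIG2 was called between the DMSO groups (0.0448). Calls over all genes were 6431 against 6816 in A375 and 4522 against 4991 in A2058. With 3 arrays a group, and with CA12 and RORA below the median gene in every group, small changes such as those of JMJD6, HIF1AN and SLC6A8 are at the limit of what these arrays resolve.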

Other observations

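EGLN2, the prolyl hydroxylase with no probe set of its own here, shares a probe set with the read-through transcript RAB4B-EGLN2. That probe set averaged 6.31 ± 0.12 (SD, n = 3) in A375 with DMSO and 6.62 ± 0.034 with vemurafenib, and 6.41 ± 0.035 and 6.53 ± 0.040 in A2058. The differences of 0.31 and 0.12 cannot be assigned to either transcript. A further probe set shared by SLC6A8 and its copies SLC6A10P and SLC6A10PB averaged 9.65 and 9.46 in A375 without and with vemurafenib, and 8.98 and 9.47 in A2058. Its difference of 0.49 in A2058 had the same sign as that of the SLC6A8 probe set (0.32), while in A375 it was -0.19 against 0.02.

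Among the further HIF targets, chosen after their values were seen, several rose against the direction of the list. HMOX1, which breaks down heme, rose by 1.42 ± 0.079 in A375 and 0.49 ± 0.079 in A2058. PFKFB2, an enzyme of fructose bisphosphate turnover, rose by 0.65 ± 0.095 and 0.61 ± 0.095, and the phosphatidate phosphatase LPIN1 by 0.31 ± 0.040 and 0.76 ± 0.040. RRAGD, a GTPase of the nutrient-sensing pathway, rose by 0.97 ± 0.058 in A2058 but changed by -0.65 ± 0.058 (adjusted p = 1.46e-06) in A375, where it fell.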
